A study of Mus musculus with 12 samples.

Results

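MiR-22 is a hairpin miRNA with 2 mature products, mmu-miR-22-3p and mmu-miR-22-5p, and both were followed through postnatal growth of the mouse quadriceps. They are 2 of the 1966 mature miRNAs in the count table, and both were among the 809 miRNAs tested after a filter on low counts. The miRNA was picked by its measured values, namely the large rise of miR-22-3p to postnatal day 90 (P90), so every comparison with P90 is given here as a description without a test. Small RNA was sequenced from wild-type C57BL/6J mice aged 1, 5, 14 and 90 days (P1, P5, P14 and P90), with 3 libraries at each age and no treatment or allele that separates the groups. The methods describe as many mice as libraries at each age, and RNA was extracted from muscle tissue with all its cell types.

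MiRNAs are cut from a hairpin in 2 steps, and the resulting duplex releases 1 strand, the guide, into an Argonaute protein while the passenger strand is mostly degraded. The guide then lowers the output of mRNAs that pair with its seed, the bases near its 5′ end. MiR-22-3p is known as the guide of this hairpin and as an abundant miRNA of heart and skeletal muscle. In the heart it has been tied to growth of cardiac muscle cells, with Hdac4 and Sirt1 among its reported targets.

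The hairpin lies on the plus strand at chr11:75463716-75463810 (GRCm38.p6), inside the lncRNA gene Mir22hg (chr11:75461539-75466690), whose name marks it as the host gene. In GENCODE vM39 the hairpin is contained in exon 2 of both annotated transcripts of Mir22hg, so it is exonic and not intronic. No other RefSeq gene overlaps it. The nearest other miRNA hairpin, Mir3971, is 87619 bp away, and the next, Mir132, is 289969 bp away. Both mature sequences were taken from RefSeq. They are shown because the arms are counted by their sequence and position, with the seed (bases 2 to 8) in capitals.

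miR-22-5p (chr11:75463734-75463755): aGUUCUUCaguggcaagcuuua
miR-22-3p (chr11:75463772-75463793): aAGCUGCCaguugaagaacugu

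Both arms are 22 nt long and start with an A, but their seeds differ, so they would pair with different mRNAs. Neither seed was shared with another of the 1679 mature miRNAs that have a sequence in the table used. The longest run of bases that miR-22-3p shared with another mature miRNA was 9 nt (miR-3966), and for miR-22-5p it was 10 nt (miR-146a-3p). The GC content was 45.5% for miR-22-3p and 40.9% for miR-22-5p. The whole hairpin is shown with the mature arms in capitals, to make their place in the stem visible.

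miR-22 hairpin: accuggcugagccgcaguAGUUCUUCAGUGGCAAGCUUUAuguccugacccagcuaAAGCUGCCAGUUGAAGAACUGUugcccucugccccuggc

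In a predicted fold of this sequence, with a free energy of -41.9 kcal/mol, 21 of the 22 bases of each arm were paired.

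The libraries held 20363495 to 53126984 counts, with the highest totals at P90. Normalised CPM below are counts per 1e6 of the library size scaled by TMM, a method that assumes that most miRNAs keep their level. The TMM factors were 1.24 to 1.73 at P1, P5 and P14 and 0.247 to 0.384 at P90. At P90, miR-1a-3p and miR-1b-5p, which face each other on opposite strands of one locus, took 79.6 to 85.3% of all counts, compared with 24.2 to 46.3% at the younger ages. Because normalised CPM and plain shares of the counts then differ most at P90, both are given. The muscle miRNAs miR-1a-3p, miR-133a-3p and miR-206-3p together held 23.9 to 58.5% of the counts of a library, and none of the 3 was at 0.

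MiR-22-3p was a moderately abundant miRNA in newborn muscle and its level was higher at each later age. At P1 the normalised CPM were 1311, 1061 and 1154 in replicates 1, 2 and 3. At P5 they were 1673, 1717 and 1752. At P14 they were 5029, 4376 and 4892. These values did not overlap between ages, and the 3 P5 libraries lay close together. At P90 they were 25410, 28521 and 32178, above every younger library. The means were 1175 ± 127 for P1, 1714 ± 39.9 for P5, 4766 ± 344 for P14 and 28703 ± 3388 for P90 (SD, n = 3 at each age). In bulk tissue, a higher share of the cells that hold miR-22 and more miR-22 per cell cannot be told apart.

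MiR-22-5p, the less abundant arm, went through the same order of ages. At P1 its normalised CPM were 42.9, 35.5 and 43.0 in replicates 1, 2 and 3. At P5 they were 60.8, 66.4 and 62.9. At P14 they were 183, 160 and 194. As for the other arm, no library of one age overlapped with those of another. At P90 they were 840, 848 and 1035. The means were 40.5 ± 4.29, 63.4 ± 2.83, 179 ± 16.9 and 908 ± 111 (SD, n = 3 at each age).

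**Figure D1:**
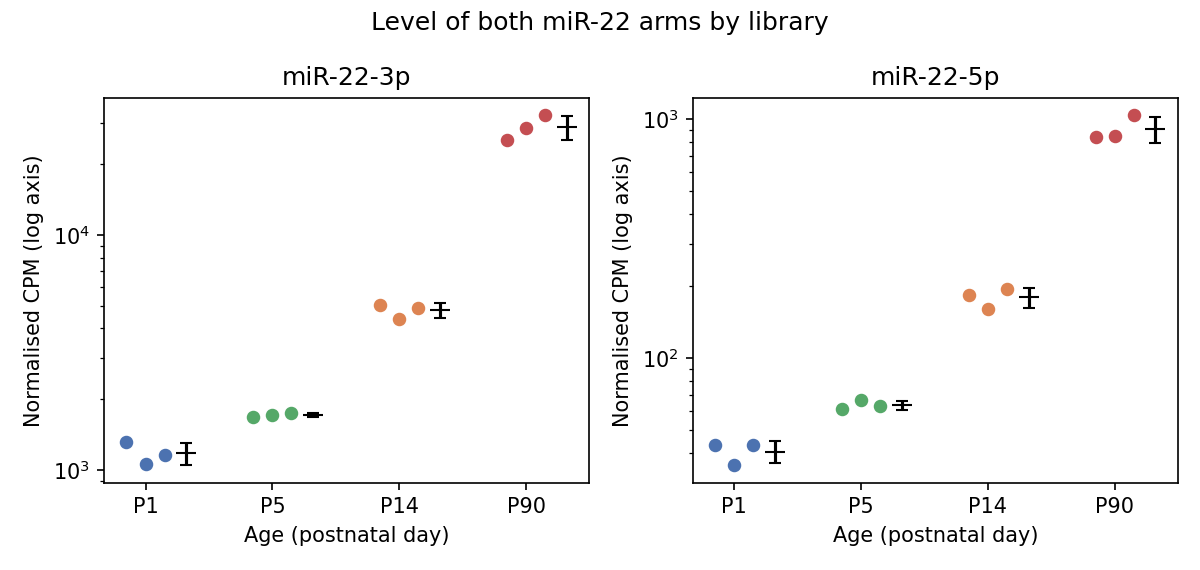
Normalised CPM (log axis) of miR-22-3p and miR-22-5p in each library against age. Points are libraries, and the bar beside them is the mean ± SD of the 3 libraries of an age. Both arms step up at every age, with miR-22-3p between 1061 and 1311 at P1 and between 25410 and 32178 at P90.

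The comparison of P14 with P5 contrasts no P90 and no P1 library. All 12 libraries nevertheless entered the filter, the scaling and the estimate of the spread behind its SE and Padj. Its P14 libraries are also part of the rise from P14 to P90, and a rise to P90 was what chose the miRNA. Both arms rose in this step. The log2 fold change (log2FC) of miR-22-3p was 1.48 (SE 0.13, edgeR Padj = 3.0e-07), which is a 2.78-fold change of the mean normalised CPM. The log2FC of miR-22-5p was 1.498 (SE 0.14, edgeR Padj = 7.8e-07), or 2.82-fold. Padj is the P value of edgeR's quasi-likelihood test with Benjamini-Hochberg adjustment over the whole table tested, and a value under 0.05 is taken as a call. Both members were thus called in a step in which 18.0% of all miRNAs tested were called higher and 26.3% lower. Their libraries did not overlap either, as was the case for 23.0% of all miRNAs tested, with every P14 library above every P5 library. Over the 20 alternatives run, the log2FC stayed between 1.37 and 1.76 for miR-22-3p and between 1.39 and 1.79 for miR-22-5p, and Padj stayed between 1.6e-22 and 5.2e-06 and between 2.0e-22 and 1.2e-05.

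The levels of P14 libraries also depended on GC content, with a slope of 0.377 to 0.561 log2 units per 10 GC points relative to the mean of all libraries, against -0.012 to 0.075 at P1 and P5. With this trend removed, the P14 versus P5 log2FC was 1.58 for miR-22-3p (edgeR Padj = 1.4e-07) and 1.79 for miR-22-5p (edgeR Padj = 1.0e-07). Both arms are poorer in GC than the miRNAs in the trend, which averaged 47.9% GC.

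Between P1 and P5 the rise was small and the call was not stable. The log2FC was 0.54 for miR-22-3p (SE 0.12, edgeR Padj = 0.0223) and 0.65 for miR-22-5p (SE 0.14, edgeR Padj = 0.0207), or 1.46-fold and 1.57-fold. In this step 2.72% of all miRNAs tested were called higher and 1.73% lower, and for 16.4% every P5 library lay above every P1 library, as for both arms of miR-22. The P1 libraries are shared with the P90 versus P1 comparison that chose the miRNA. The miR-22-3p call was lost without P1 replicate 2 (log2FC 0.45, edgeR Padj = 0.148), without P1 replicate 3 (0.52, edgeR Padj = 0.0903), without P5 replicate 2 (0.54, edgeR Padj = 0.101) and without P5 replicate 3 (0.52, edgeR Padj = 0.081). The miR-22-5p call was lost without P1 replicate 2 (0.54, edgeR Padj = 0.14), without P5 replicate 2 (0.61, edgeR Padj = 0.0884) and without P5 replicate 3 (0.65, edgeR Padj = 0.0729). With library totals alone, neither arm was called (0.25 and 0.35, edgeR Padj = 0.304 and 0.238). P1 replicate 2, which had the lowest level of both arms at P1, also held the highest level of the liver marker miR-122-5p, 366 normalised CPM against 5.62 to 137 in the other libraries, and the highest sum of the white blood cell markers, 475 against 170 to 453. P5 replicate 3 held the highest sum of the 3 neural markers, 342 normalised CPM against 84.97 to 193 in the other libraries. Without P5 replicate 3 the calls of both arms were lost, as given above. The part of such admixture in the step from P1 to P5 was not tested.

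The P14 versus P1 comparison, and the test over all 3 younger ages, again share the P1 libraries with the rise that chose the miRNA, so neither is independent of that choice. From P1 to P14 the log2FC was 2.02 for miR-22-3p (SE 0.13, edgeR Padj = 8.1e-09) and 2.15 for miR-22-5p (SE 0.15, edgeR Padj = 1.6e-08). The means were 4.05-fold and 4.42-fold higher. Here 20.3% of the miRNAs tested were called higher and 28.8% lower, and 25.7% had every P14 library above every P1 library. In a test for any difference among P1, P5 and P14, which called 48.2% of the miRNAs tested, both arms were called (edgeR Padj = 1.5e-08 for miR-22-3p and 1.8e-08 for miR-22-5p). Among the 809 miRNAs tested, the P14 versus P1 log2FC of miR-22-3p was the 44th highest and that of miR-22-5p the 38th highest.

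Shares of the counts need no scaling factor. MiR-22-3p held 0.184% ± 0.00631 of the counts at P1, 0.219% ± 0.0110 at P5, and 0.734% ± 0.0404 at P14 (SD, n = 3 at each age). The corresponding shares of miR-22-5p were 0.00635% ± 0.000353, 0.00809% ± 0.000293 and 0.0275% ± 0.000264. The largest half-width of a 95% Wilson interval was 0.00359 percentage points for the share of miR-22-3p and 0.000716 for that of miR-22-5p. The SD of miR-22-3p exceeded its half-width at each age. The SD of miR-22-5p was below the half-widths of the libraries at P5 (0.000306 to 0.000312) and at P14 (0.000664 to 0.000716). A 95% half-width is larger than 1 standard error, so an SD just below it, as at P5, can still exceed counting error. At P14 the SD of miR-22-5p was much further below it and showed no spread beyond counting error. The 3 ages differed for both arms (exact permutation test, p = 0.00357 for each, the smallest that the 280 partitions of 9 libraries can give, and 0.00536 after adjustment over 3 tests). The P1 libraries are part of this test too, so it is not independent of the choice of the miRNA. The step from P5 to P14 was 3.35-fold for miR-22-3p and 3.40-fold for miR-22-5p in shares, slightly more than in normalised CPM. In this step the share of miR-1a-3p and miR-1b-5p fell from a mean of 45.1% to 30.9%. With their counts left out of the total, the step was 2.67-fold and 2.71-fold, slightly less than in normalised CPM.

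The rise from P14 to P90, in contrast, depended on how the libraries were scaled. The P90 share of miR-22-3p was 0.976%, 1.01% and 0.795% in replicates 1, 2 and 3, against 0.760%, 0.755% and 0.687% at P14. These groups did not overlap, but the means differed only 1.26-fold. The P90 share of miR-22-5p was 0.0323%, 0.0301% and 0.0256%, against 0.0276%, 0.0277% and 0.0272% at P14. These values overlapped, and the means differed 1.07-fold. With the miR-1a-3p and miR-1b-5p counts left out of the total, miR-22-3p went from 1.06% ± 0.0805 to 5.26% ± 0.423 and miR-22-5p from 0.0399% ± 0.00300 to 0.166% ± 0.00802 (SD, n = 3 at each age). On that scale the change was 4.94-fold for miR-22-3p and 4.16-fold for miR-22-5p.

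**Figure D2:**
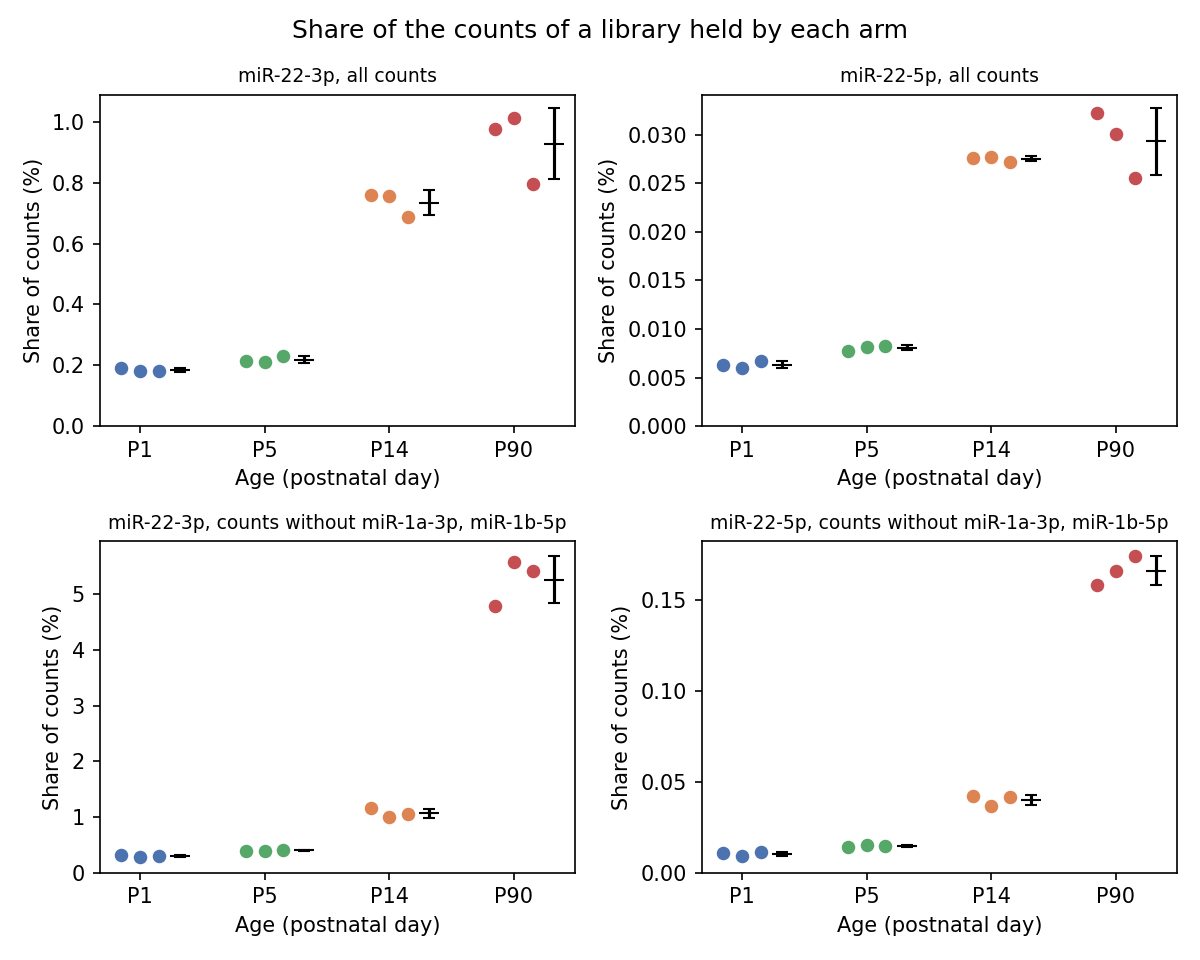
Share of the counts of a library (%, axes from 0) held by miR-22-3p and miR-22-5p against age, over all counts (top) and without the counts of miR-1a-3p and miR-1b-5p (bottom). Points are libraries and bars the mean ± SD of 3. Over all counts the P14 and P90 points of miR-22-5p overlap, while without the miR-1 counts the P90 points of both arms lie far above all others.

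With TMM factors the P90 versus P14 log2FC was 2.59 (SE 0.13) for miR-22-3p and 2.34 (SE 0.15) for miR-22-5p. The P90 versus P1 log2FC was 4.61 (SE 0.14) and 4.49 (SE 0.16), or 24.4-fold and 22.4-fold. As a background that bears no weight here, since these comparisons chose the miRNA, 24.1% of the miRNAs tested had every P90 library above every P14 library and 28.3% had every P90 library above every P1 library. Under library totals alone, the P90 versus P14 log2FC was 0.34 for miR-22-3p and 0.09 for miR-22-5p, and under upper-quartile factors it was 4.16 and 3.91. For P90 versus P1 these scalings gave 2.33 and 2.21, and 6.49 and 6.37. The direction was thus upward under each scaling run, and its size was not fixed. The median log2FC of all miRNAs tested moved with the scaling as well, from -2.97 with library totals to -0.72 with TMM and 1.177 with upper-quartile factors for P90 versus P1. Relative to this median, miR-22-3p and miR-22-5p stood far above it under each of them. The P90 libraries also had the opposite GC slope to P14, -0.591 to -0.380 log2 units per 10 GC points.

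**Figure D3:**
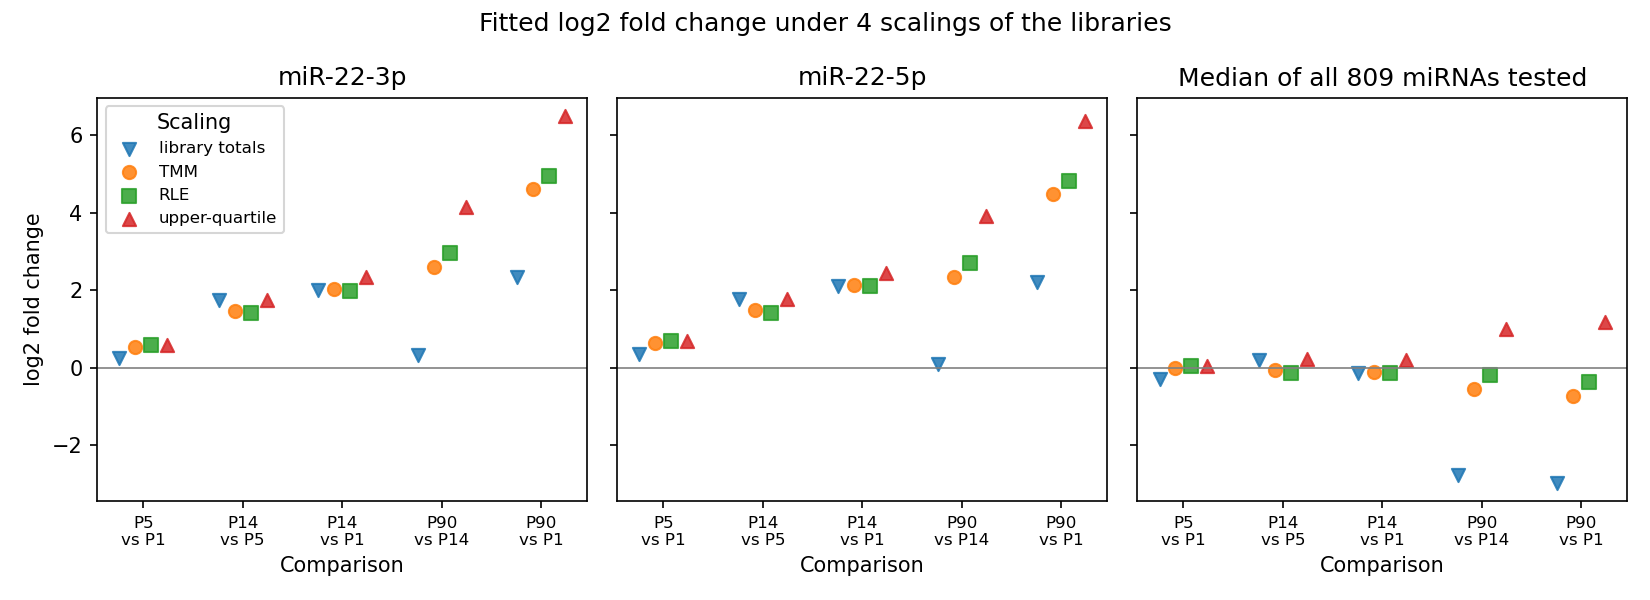
Fitted log2 fold change of miR-22-3p, of miR-22-5p and of the median miRNA tested in 5 comparisons of ages, with 1 point for each of 4 scalings of the libraries. The points spread less in the comparisons without P90, though from 0.25 with library totals to 0.59 with RLE for miR-22-3p in P5 versus P1. In P90 versus P1 they spread from 2.33 to 6.49 for miR-22-3p.

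In the order of abundance within a library, which no scaling changes, miR-22-3p moved up at each age. It ranked 70th to 77th at P1, 59th to 62nd at P5, 26th to 28th at P14, and 7th in all 3 P90 libraries. MiR-22-5p held the 244th to 262nd place in P1 libraries, the 225th to 232nd in P5, the 161st to 166th in P14 and the 55th to 57th in P90 libraries. A rank can also rise when more abundant miRNAs fall, as miR-206-3p did from 19410 normalised CPM at P14 to 1288 at P90. The part of such falls in the ranks of miR-22 was not tested. At P1 the mean share of miR-22-3p lay between those of miR-214-3p (0.189% ± 0.0424) and miR-450a-5p (0.178% ± 0.0120), and its libraries overlapped with both (SD, n = 3). At P90 it lay between miR-30a-5p (1.36% ± 0.121), with no overlap, and let-7f-5p (0.878% ± 0.0944), with overlap. Among the 206 miRNAs that averaged 100 normalised CPM or more, the P90 versus P1 log2FC of miR-22-3p and miR-22-5p came 3rd and 4th, after miR-29c-3p (6.67, SE 0.26) and miR-29a-3p (5.70, SE 0.24) and before miR-181a-2-3p (3.74, SE 0.17). MiR-22-5p reaches this mean through its P90 level. So do miR-181a-2-3p (68.8 normalised CPM at P14, 306 at P90) and miR-29c-3p (P90 versus P14 log2FC 5.66). This cut on the mean thus uses the age that chose the miRNA. Among all 809 miRNAs tested the arms came 12th and 13th.

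Since both arms come from 1 precursor, their ratio was examined next. The 3p arm held 96.2 to 97.1% of the counts of both arms in the 12 libraries, which is 25.3 to 33.6 reads of miR-22-3p for each read of miR-22-5p. The log2 of this ratio was 4.93, 4.90 and 4.75 in P1 replicates 1, 2 and 3. It was 4.78, 4.69 and 4.80 at P5 and 4.78, 4.77 and 4.66 at P14. These 3 ages overlapped, and their differences stayed within the spread of replicates (exact permutation test, p = 0.214, 60 of 280 partitions). The change from P1 to P14 was -0.12, with an SD of 0.12 for the difference of single libraries. The outcome of this test was not stable, as it passed 0.05 without P1 replicate 3 (exact permutation test, p = 0.0393) and with the GC trend removed (exact permutation test, p = 0.0107, with a change of -0.30). At P90 the values were 4.92, 5.07 and 4.96, above all P14 libraries, as for 26.0% of the 250 hairpins with both arms tested, and overlapping with P1.

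The changes of the arm ratio were small beside those of the levels, but their size depended on the GC trend. Between P5 and P14, when both levels rose by over 1.4 log2 units, the log2 ratio changed by -0.02, and 2.00% of the 250 hairpins changed by less. The median absolute change over all hairpins in that step was 0.71. These hairpins were not matched to miR-22 in abundance. Some have an arm with few counts, such as miR-149-3p (mean 0.198 normalised CPM) and miR-3058-3p (0.354), whose ratio carries more counting error. From P14 to P90 the ratio of miR-22 changed by 0.25, where the median was 0.81 and 15.6% of hairpins changed by less. With the GC trend removed, an alternative chosen for these steps after seeing the data, the ratio changed by -0.21 between P5 and P14, with every P14 library below every P5 library, and by 0.67 between P14 and P90. Over the 201 hairpins with a sequence for both arms, the corrected median absolute changes were 0.62 and 0.83, and 15.4% and 42.8% of hairpins changed by less than miR-22. The mean log2 ratio of miR-22, 4.83, was itself on the large side, as the median absolute value was 3.52 and 94 hairpins had a larger one.

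**Figure D4:**
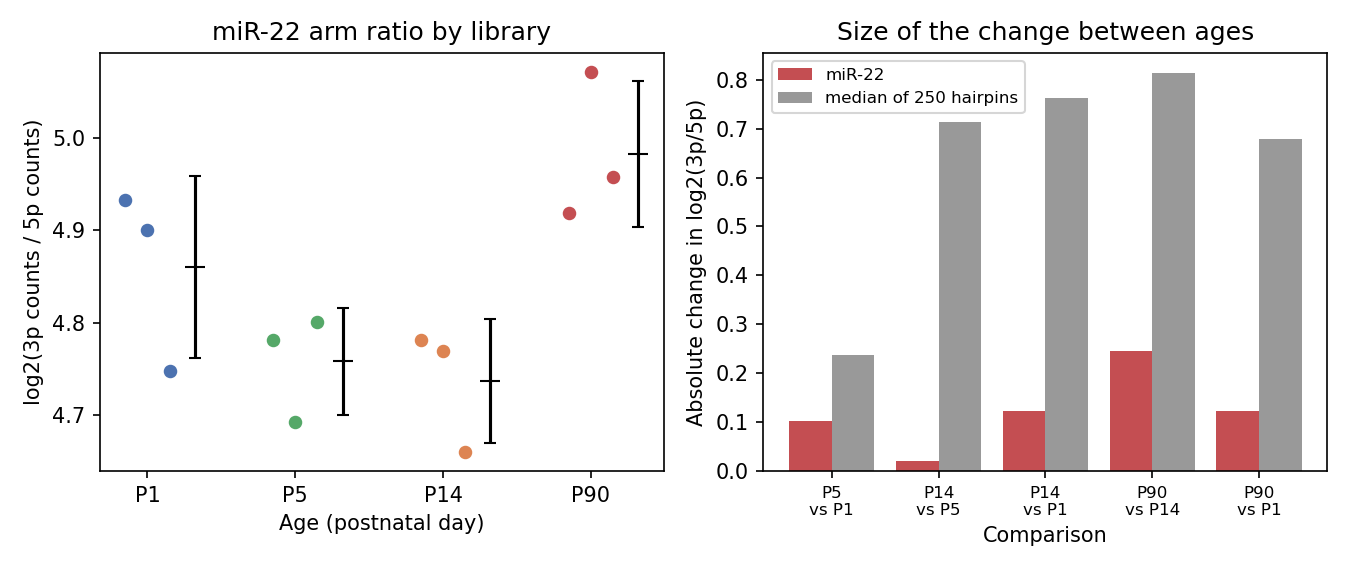
Left, log2 of the ratio of miR-22-3p to miR-22-5p counts in each library against age, with the mean ± SD of 3 libraries. Right, the absolute change of this ratio between ages (log2 units, bars from 0) for miR-22 beside the median of 250 hairpins, not matched in abundance. Without a GC correction, miR-22 changed by 0.02 to 0.25 and the median hairpin by 0.24 to 0.81.

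The profiles most like those of the arms were then listed among the same 206 miRNAs, by Pearson's r of log2 normalised CPM over the 12 libraries. This is a description, as the libraries share 1 scaling factor for all miRNAs and fall into 4 ages. The miRNA most like miR-22-3p was miR-22-5p (r = 0.998). It was followed by miR-30f (0.998), miR-30e-3p (0.998), miR-30a-3p (0.996) and miR-181a-2-3p (0.988). For miR-22-5p the order was miR-22-3p, miR-30f, miR-30e-3p, miR-30a-3p and miR-28a-5p (0.991). MiR-30f and miR-30e-3p lie on opposite strands of one locus and had nearly the same level (101 and 100 normalised CPM at P1, 635 and 633 at P90), so they count as 1 profile whose strand is uncertain. With library totals alone, r with miR-22-3p was 0.994 for miR-22-5p and 0.961 for miR-30a-3p, but 0.716 for miR-30f and 0.720 for miR-30e-3p. MiR-30a-3p, the passenger strand of miR-30a, went from 124 ± 6.19 normalised CPM at P1 to 389 ± 13.0 at P14 and 1643 ± 195 at P90 (SD, n = 3), a smaller rise than that of miR-22.

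**Figure D5:**
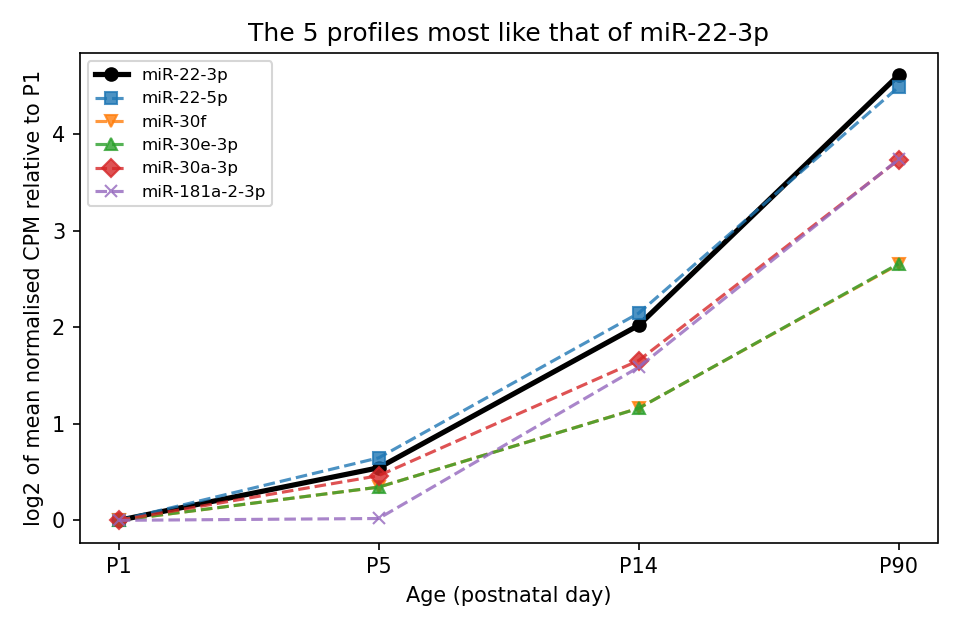
Log2 of the mean normalised CPM of an age relative to P1 for miR-22-3p (thick line) and the 5 miRNAs whose profile over the 12 libraries was most like it. MiR-22-5p follows miR-22-3p closely at each age, whereas miR-30e-3p and miR-30f, which coincide, rise less.

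MiR-22 was also set beside 2 lists of miRNAs with a known place in muscle. Of 8 miRNAs of striated muscle, 7 were tested. Between P5 and P14, miR-133a-3p (log2FC 1.65) and miR-486a-5p (2.35) rose, and miR-1a-3p (-0.80), miR-208b-3p (-1.74) and miR-499-5p (-2.86) fell. These are 2 of 7 higher and 3 of 7 lower, where 18.0% and 26.3% of all miRNAs tested were called. Between P1 and P14, 2 of the 7 rose and 3 fell (20.3% and 28.8% of all miRNAs tested). Between P1 and P5 edgeR called none, with 2 at an unadjusted p under 0.05 and 1 called by DESeq2. Over all miRNAs tested, edgeR called 2.72% higher and 1.73% lower in that step. The median log2FC of the list was -0.27 for P14 versus P5 (-0.07 over all miRNAs tested). MiR-208b-3p and miR-499-5p, which are encoded in introns of slow myosin genes, thus went down in the step in which miR-22 went up.

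The second list held 8 miRNAs known from growth of the heart muscle, all tested. Between P5 and P14, miR-23a-3p (log2FC 0.50), miR-195a-5p (0.80) and miR-132-3p (0.67) rose, while miR-21a-5p (-1.64) and miR-199a-3p (-1.21) fell. These are 3 of 8 higher and 2 of 8 lower, beside the same 18.0% and 26.3% over all miRNAs tested. The median log2FC was 0.35, against 1.48 and 1.498 for the arms of miR-22. Between P1 and P14, 3 rose and 3 fell (20.3% and 28.8% of all miRNAs tested), and the rise of miR-195a-5p was 2.22. Between P1 and P5, miR-195a-5p alone was called (1.42), where 2.72% of all miRNAs tested were called higher and 1.73% lower. In that step 3 of the list had an unadjusted p under 0.05 and DESeq2 called 1. MiR-132-3p and miR-212-3p, from the hairpins next to miR-22 on chromosome 11 apart from Mir3971, did not follow it to P90, with 20.5 and 1.12 normalised CPM there against 21.8 and 1.85 at P1.

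Markers of other cell types were measured in the same libraries. The sum of both endothelial markers, miR-126a-3p and miR-126a-5p, moved with miR-22 in normalised CPM, with 3353 to 4367 in P1 libraries, 4991 to 6906 in P5, 7438 to 8591 in P14 and 9661 to 12990 in P90 libraries. In shares it rose from 0.570 to 0.638% at P1 to 1.20 to 1.30% at P14, and was 0.321 to 0.452% at P90, below P1. The smooth muscle markers miR-143-3p and miR-145a-5p summed to 16760 to 19740 normalised CPM at P1 and 21208 to 25195 at P5. Their sum was 20673 to 25637 at P14 and 57060 to 73287 at P90. As a share of the counts it was 2.63 to 3.02% at P1 and 2.70 to 3.11% at P5. At P14 it was 3.49 to 3.87% and at P90 1.81 to 2.42%. The 3 red blood cell markers summed to 270.5 to 307 normalised CPM at P1 and 313 to 378 at P5. They summed to 153 to 234 at P14 and 264 to 508 at P90. Their shares at these ages were 0.0423 to 0.0481%, 0.0387 to 0.0483%, 0.0256 to 0.0353% and 0.00791 to 0.0180%. The 4 white blood cell markers summed to 267 to 475 normalised CPM at P1 and 170 to 179 at P5. They summed to 213 to 219 at P14 and 319 to 453 at P90. The liver marker miR-122-5p was at 44.2 to 366 normalised CPM at P1 and 11.2 to 41.9 at P5. It was at 5.62 to 8.28 at P14 and 14.99 to 47.5 at P90. The 3 neural markers summed to 88.8 to 175 normalised CPM at P1 and 84.97 to 342 at P5. Their sum was 92.0 to 139 at P14 and 165 to 193 at P90. The highest neural sum, 342 normalised CPM or 0.0453% of the counts, was that of P5 replicate 3. In shares, the white blood cell sum went from 0.0390 to 0.0807% at P1 to 0.00827 to 0.0174% at P90, miR-122-5p from 0.00646 to 0.0622% to 0.000510 to 0.00169%, and the neural sum from 0.0130 to 0.0274% to 0.00477 to 0.00649%. Each list was complete in the table and no marker was at 0 in all libraries. The part of a changing cell composition in the miR-22 values was not tested.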

How the data were processed

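Small RNA libraries of mouse quadriceps (12 libraries, 3 at each of 4 ages) were analysed from one deposited table of raw read counts per mature miRNA. To make it, the authors selected reads of 10 to 35 nt with cutadapt 1.18, aligned them to GRCm38 with Bowtie2 2.4.1 and counted them with featureCounts 2.0.1 on miRBase release 22. Strand and overlap options were not given in the sources used here. Reads carried no molecular identifiers in these counts, so intervals cover counting error only.

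Groups and replicate numbers came from the sample titles. MiRNAs were kept with filterByExpr, scaled with TMM and fitted in 1 quasi-likelihood model of all 12 libraries with edgeR 4.0.16 (R 4.3.3), with Benjamini-Hochberg adjustment over all miRNAs tested. SE were derived from the F statistic. The steps were checked on simulated counts. Exact permutation tests, on the between-age sum of squares and so two-sided, were made over partitions of the libraries. Log2 levels used a prior count of 2. For the arm ratios of all hairpins, 0.5 was added to each count. A linear trend on the GC content of the mature sequence was removed as an alternative, and 85.0% of the miRNAs tested had a sequence. Folding used ViennaRNA 2.7.2. Alternatives comprised RLE and upper-quartile factors, library totals, no filter, DESeq2 1.42.0, the younger ages alone, a replicate block and leaving out each library. No pair of replicates was closer than sampling noise (chi-square of 155 to 1056 per degree of freedom).

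The named miRNAs comprise both arms, the miRNAs next to miR-22-3p in share and in P90 versus P1 log2FC, the 5 profiles most like each arm and 2 lists. The members and lists were chosen with earlier results of these data known.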

Additional observations from a re-analysis of the deposited data

How the results depend on the processing

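The calls of both arms for P14 versus P5 and P14 versus P1 kept their direction and side of the threshold under every alternative run for them. The test of the shares over P1, P5 and P14 gave its smallest possible p in each alternative, which says nothing about stability. Leaving out 1 library gave a P14 versus P5 log2FC of 1.41 to 1.504 for miR-22-3p and 1.40 to 1.54 for miR-22-5p. The P5 versus P1 log2FC ranged from 0.45 to 0.61 and from 0.54 to 0.68. It fell below the threshold in 4 and 3 of the 12 cases, with library totals alone (0.25 and 0.35) and, for miR-22-3p only, with the replicate number as a block (0.55, edgeR Padj = 0.0516). The number of miRNAs called for P5 versus P1 was 36, and 8 to 51 without 1 library (8 and 11 with P5 replicate 3 or 2 left out, 10 with P1 replicate 2 left out). It was 15 with the replicate block, 62 without the filter, 62 with the 9 younger libraries alone and 78 with DESeq2.

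The replicate numbers do not pair the libraries, as deviations of same-numbered libraries from their age means correlated at -0.605 to 0.328 and 2 of 12 libraries were closest to their own number. The block changed no other call of miR-22.

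The log2FC of miR-22-3p for P90 against P14 and against P1 was 2.96 and 4.95 with RLE and with DESeq2, 4.16 and 6.49 with upper-quartile factors and 0.34 and 2.33 with library totals. For miR-22-5p these values were 2.71 and 4.82 (4.83 with DESeq2), 3.91 and 6.365, and 0.092 and 2.21. Leaving out 1 library gave 2.54 to 2.82 and 4.50 to 4.84 for miR-22-3p and 2.28 to 2.57 and 4.36 to 4.72 for miR-22-5p. With the GC trend removed, the P90 versus P14 values were 2.36 and 1.69, and miR-22-5p was 4.11 for P90 versus P1. The change of the log2 arm ratio was then -0.30 for P14 minus P1, 0.37 for P90 minus P1, -0.21 for P14 minus P5 and 0.67 for P90 minus P14 (-0.12, 0.12, -0.02 and 0.25 without the correction, the last 2 added after seeing the data), and the test over P1, P5 and P14 gave p = 0.0107 (exact permutation test). Without 1 library its p was 0.0393 to 0.486, the arm ratio changed by -0.18 to -0.085 for P14 minus P1 and by 0.066 to 0.16 for P90 minus P1. Of the 5 profiles most like miR-22-3p, 3 remained with library totals and 1 with Spearman's rho, and for miR-22-5p 2 and 1. The counts were lowest for miR-22-5p (1539 to 2782 at P1 and P5), where 95% Wilson half-widths of the share were 0.000302 to 0.000312 percentage points, close to the SD between libraries. The causes of these shifts were not tested.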
